A study of Oryza sativa with 12 samples.

Results

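In drying rice leaves, 4 of the 55986 entries counted were expressed in every control library and nearly silent in every drought library: LOC_Os01g09190, LOC_Os06g45960, LOC_Os09g19500 and LOC_Os09g19510. They were chosen by level, as loci with at least 3 CPM (counts scaled to a common library total) in each of 6 control libraries and at most 0.5 CPM in each of 6 drought libraries. The difference between drought and control therefore chose them, and their drought values are a description with no test. What the choice did not use is the difference between the genotypes in control leaves and the behaviour of the loci beside them.

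Messenger RNA was sequenced from rice (Oryza sativa) leaves in 12 libraries, 3 biological replicates in each of 4 groups. All plants were of the upland cultivar IAPAR9, at the five-leaf stage and 5 weeks old, and grew in concrete tanks. Wild type and the idr1-1 mutant were each sampled in both conditions. Control plants were not stressed, and drought plants were sampled once the soil had dried to 10% moisture. As background, idr1-1 is reported to carry a mutation in RGA1, which encodes a G protein subunit (alpha). The tissue label says leaf, while the extraction protocol names seedlings.

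Water loss in a leaf raises abscisic acid, which closes the stomata and changes the transcription of many genes, some switched on and others turned down. A transcript vanishes from a tissue when its synthesis stops and the existing copies decay, or when the cells that made it are lost. In bulk leaf RNA, fewer cells of a type and less RNA per cell cannot be told apart. Rice chromosomes hold groups of neighbouring genes that are copies of one another or act in one pathway, and LOC_Os numbers ascend along a chromosome, so that consecutive numbers mark neighbouring loci.

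The files pair no locus with a gene name, and 0 of the 39387 genes in the RefSeq table at hand (ASM3414082v1) carried a LOC_Os identifier. The 4 loci are therefore described by identifier, with no name, product, length or coordinates. Without lengths, CPM values are compared between groups for one locus and not between loci, except in the measure of likeness given last. None of 56 loci listed from recalled published assignments (markers of tissue, drought and genotype, and flowering, clock, nitrate, phytoalexin, defence and sugar genes) was among the 4 (0 of 56). All 48 values of the 4 loci were whole numbers, whereas 13.8% of nonzero values in the whole table were fractions, which arise when a read is shared between loci.

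Library totals ran from 19100444 to 25109848 counts. Replicates correlated at 0.989 to 0.992 (Pearson r of log2 levels across loci) except in drought-stressed idr1-1, at 0.959 to 0.986, where replicate 3 stood apart from replicates 1 and 2. Names in this paragraph are assignments of loci, not names from the files. RGA1 was at 30.0 ± 4.27 CPM in wild type control and 11.7 ± 0.580 in idr1-1 control (SD, n = 3), and at 25.5 ± 1.89 and 11.95 ± 0.940 CPM in drought, lower in the libraries labelled idr1-1. The dehydrin RAB21 had 1 and 2 counts in the control groups and 62427 and 24248 in the drought groups of wild type and idr1-1. The 4 leaf markers (RCA, CAB1R, RBCS2 and RBCS3) summed to between 32603 and 47732 CPM in every library. Of the 2 shoot apex markers 1 was at 0 throughout and the other had 1 count. Of the 2 root markers LSI2 was at 0, while LSI1 was detected, at 16.9 ± 1.82 and 19.4 ± 0.531 CPM in wild type and idr1-1 control.

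Drought changed much of the transcriptome: of 22833 loci tested (edgeR, adjusted p below 0.05), 43.9% were called in wild type and 35.6% in idr1-1. Of the loci at 3 CPM or more in every control library, 23.8% were called lower in wild type drought and 20.6% in idr1-1 drought. These are the background to the choice of the 4 loci, from which nothing is read. At least 3 CPM in every control library was reached by 15590 loci. Of these, 17 were at or under 0.5 CPM in all wild type drought libraries, 7 in all idr1-1 drought libraries, and 4 in both. Without idr1-1 drought replicate 3, the library that stood apart, the idr1-1 count was 16 and the count for both was 5. This check was added after the data were seen. Leaving out a library can only raise such counts, and wild type was still held to 3 drought libraries. The idr1-1 count was not taken without any other library. The mirror pattern, at most 0.5 CPM in every control library and at least 3 in every drought library, was met by 30 loci.

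**Figure D1:**
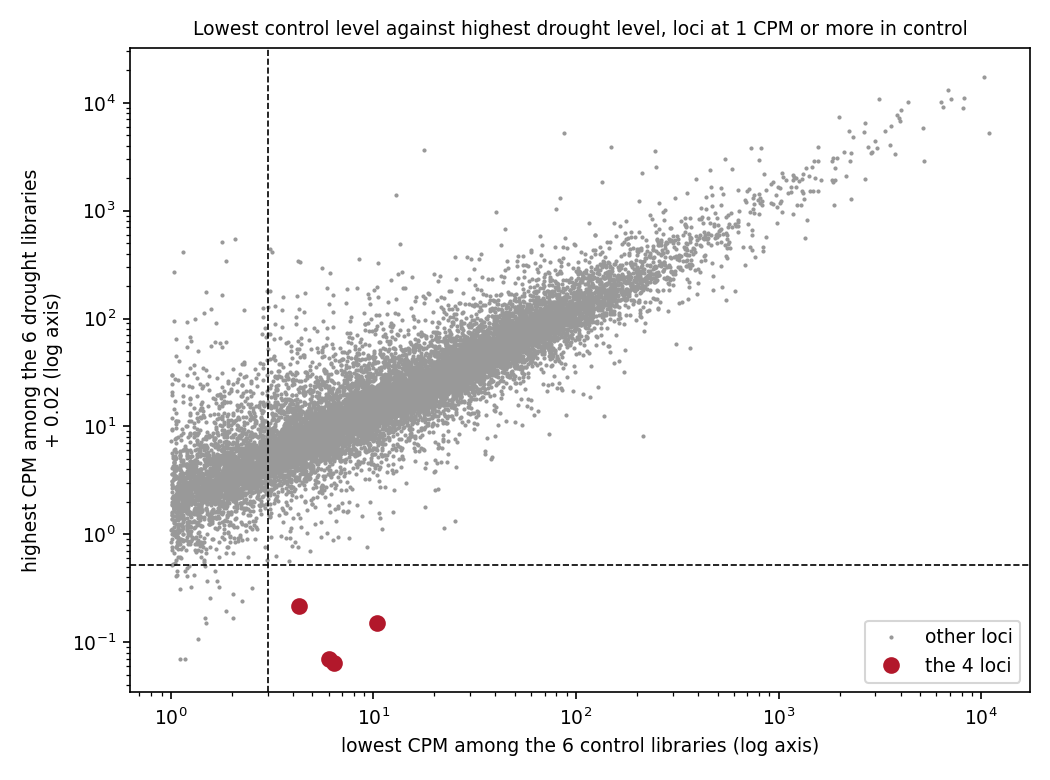
Each grey point is a locus with at least 1 CPM in every control library, placed by its lowest level among 6 control libraries (x, CPM, log axis) and its highest level among 6 drought libraries (y, CPM + 0.02, log axis). Dashed lines mark the limits of 3 and 0.5 CPM, and the 4 loci (red) sit in the lower right area, with highest drought levels of 0.0440 to 0.199 CPM.

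The lowest control level among the 4 was 4.29 CPM and their highest drought level 0.199 CPM, both in LOC_Os06g45960. With a limit of 5 CPM in every control library that locus dropped out and 3 remained. Just over the drought limit, with at least 3 CPM in all control libraries, lay LOC_Os10g34700 (highest drought library 0.547 CPM), LOC_Os04g27020 (0.612 CPM), LOC_Os02g12900 (0.677 CPM), LOC_Os10g33900 (0.748 CPM) and LOC_Os07g06860 (0.748 CPM). Just under the control limit lay LOC_Os04g43840 (lowest control library 2.51 CPM), LOC_Os11g31530 (2.25 CPM), LOC_Os01g09150 (2.04 CPM), LOC_Os07g11970 (2.04 CPM) and LOC_Os04g10160 (1.86 CPM).

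LOC_Os01g09190, on chromosome 1, was at 10.6, 10.4 and 13.1 CPM in wild type control replicates 1, 2 and 3, and at 20.04, 32.6 and 19.96 CPM in those of idr1-1. No read was counted in any wild type drought library, and idr1-1 drought replicates 1, 2 and 3 had 0, 3 and 0 counts. The idr1-1 control libraries were thus all above the wild type ones, with replicate 2 the highest. Over the group, 717 counts in wild type control stood against 0 in drought, which makes drought at least 266-fold lower against a floor of 3 counts per group. In idr1-1, 1461 counts stood against 3, a ratio of 525 (exact 95% counting interval 179 to 2548).

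LOC_Os06g45960, on chromosome 6, was the locus with counts left in both drought groups. Its control levels were 5.67, 4.29 and 4.42 CPM in wild type and 14.4, 12.5 and 13.8 CPM in idr1-1. Drought replicates 1, 2 and 3 held 3, 2 and 0 counts in wild type and 4, 2 and 4 in idr1-1. Reads were thus left in 5 of 6 drought libraries, at no more than 0.199 CPM. The ratio of control to drought was 67.8 in wild type (305 against 5 counts, interval 28.7 to 210) and 89.4 in idr1-1 (829 against 10, interval 48.3 to 187).

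LOC_Os09g19500 and LOC_Os09g19510, on chromosome 9, carry consecutive identifiers with no entry between them. LOC_Os09g19500 was at 15.9, 14.1 and 18.4 CPM in wild type control and 7.33, 6.02 and 7.74 CPM in idr1-1 control. LOC_Os09g19510 was at 17.5, 13.2 and 24.5 CPM in wild type control and 6.38, 7.43 and 9.71 CPM in idr1-1 control. Both were higher in every wild type control library than in any of idr1-1, and in both replicate 3 was the highest of each control group. Neither had a count in wild type drought, which puts drought at least 378-fold and 426-fold lower than control. In idr1-1 drought LOC_Os09g19500 had 1, 0 and 1 counts in replicates 1, 2 and 3 (ratio of control to drought 232, interval 63.9 to 1924) and LOC_Os09g19510 had 1, 0 and 0 (ratio 516, interval 92.2 to 20435).

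**Figure D2:**
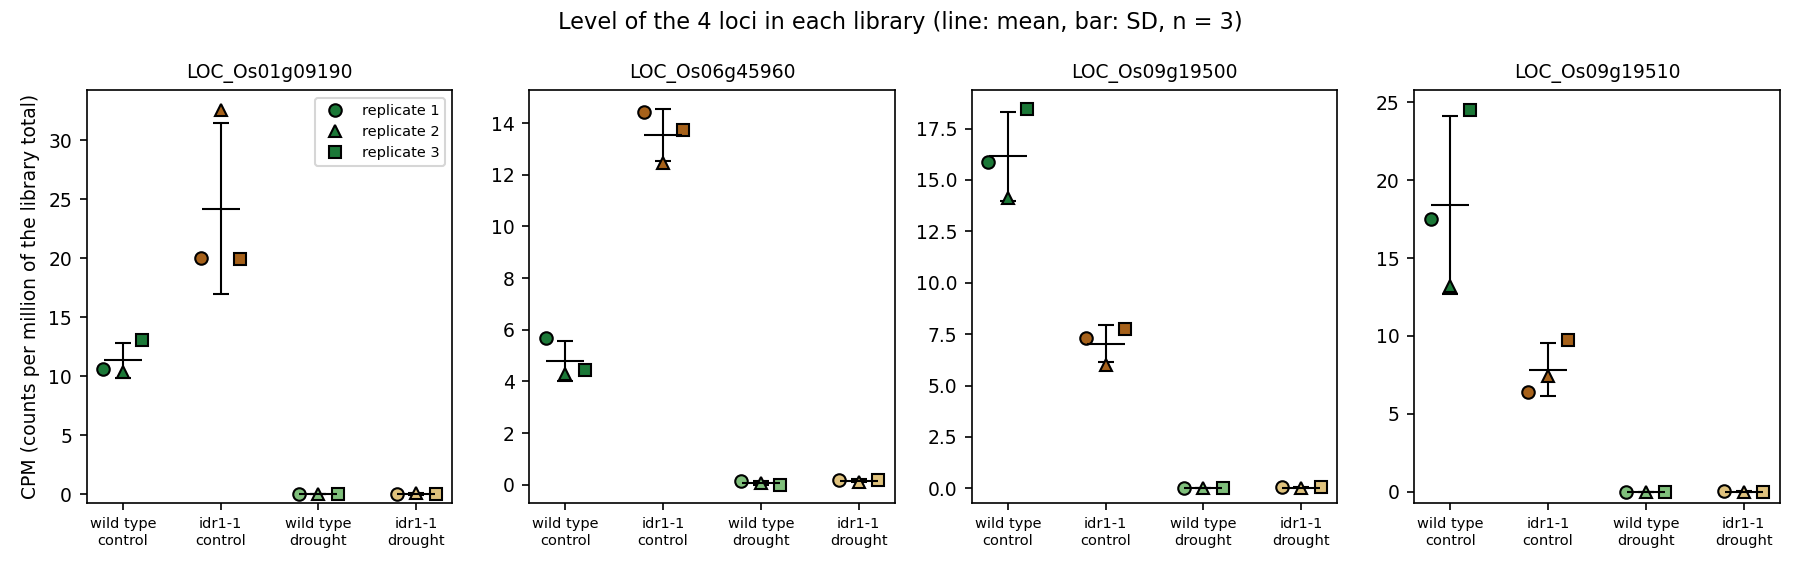
CPM of each locus in each library, by group (symbols are replicates 1 to 3, lines the mean and bars the SD, n = 3, linear axes that differ between panels). In control leaves LOC_Os01g09190 and LOC_Os06g45960 were higher in idr1-1 and the chromosome 9 pair was higher in wild type, and all drought libraries lie at or below 0.199 CPM.

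At this depth a group of 3 libraries with 0 counts allows a level of up to 0.0424 CPM in wild type drought (3 counts of the group's total), and 3 counts in a single drought library correspond to 0.119 to 0.149 CPM. The counts left in drought, at most 4 in any library, are near that floor, so that no genotype ratio is given for drought leaves. The intervals and floors cover counting error only. As a measured fact beside the drought values, the 4 inflorescence markers (MADS14, MADS15, MADS1 and MADS6, by assigned locus) summed to 1.90 to 4.25 CPM in wild type control and 2.67 to 4.14 CPM in idr1-1 control, and to 0.0439 to 0.119 and 0 to 0.697 CPM in the 2 drought groups. None of the 4 was at 0 in all 12 libraries, and MADS6 had 1 count in all. MADS14, which acts in the floral transition, had 173 and 157 counts in wild type and idr1-1 control and 3 and 5 in drought. LSI1, the root marker detected, was at 16.9 ± 1.82 and 19.4 ± 0.531 CPM in wild type and idr1-1 control and at 8.80 ± 1.42 and 10.9 ± 6.09 CPM in drought. The part of such tissues in the drought values was not tested.

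The genotypes differed in control leaves at all 4 loci. LOC_Os01g09190 was 2.13 times and LOC_Os06g45960 2.83 times as high in idr1-1 as in wild type, and LOC_Os09g19500 and LOC_Os09g19510 were 2.296 and 2.35 times as high in wild type as in idr1-1. In no case did the 3 libraries of one genotype overlap those of the other, a separation found in 39.5% of all loci tested. edgeR's quasi-likelihood test over all 12 libraries, with Benjamini-Hochberg adjustment over all loci, called 4 of 4, 2 in each direction. Of all loci tested 10.5% were called in either direction, 5.54% higher and 4.93% lower in idr1-1, and 11.7% of the 15590 loci with at least 3 CPM in every control library. That background itself moved with single libraries, from 2391 loci to 207 without idr1-1 control replicate 3 and 4557 without idr1-1 drought replicate 3.

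On the log2 scale, idr1-1 minus wild type was 1.18 (SE 0.26, adjusted p = 0.026) for LOC_Os01g09190 and 1.59 (SE 0.21, adjusted p = 0.0053) for LOC_Os06g45960. It was -1.11 (SE 0.17, adjusted p = 0.01) for LOC_Os09g19500 and -1.13 (SE 0.25, adjusted p = 0.027) for LOC_Os09g19510. Differences at least as large, of either sign, were found in 2.55% of tested loci for LOC_Os06g45960 and in 5.24% to 6.01% for the others. The control limit leaves out loci that are off in one genotype, so that these differences are bounded by the choice. The 3 secondary-wall markers (CESA4, CESA7 and CESA9, by assigned locus, none at 0) summed to 26.8 to 41.1 CPM in wild type control and 3.65 to 14.7 CPM in idr1-1 control, and to 27.04 to 44.6 CPM in wild type drought and 42.0 to 66.8 CPM in idr1-1 drought. They were thus lower in idr1-1 control, as the chromosome 9 pair was, while LOC_Os01g09190 and LOC_Os06g45960 were higher there. In drought, where each locus of the pair had 0 to 2 counts a group, none of the 6 sums was below the lowest of wild type control. The part of such tissue in the genotype differences was not tested.

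Leaving out single libraries ended 2 of the 4 calls. The call for LOC_Os01g09190 was lost when any 1 of the 6 control libraries was left out (adjusted p = 0.056 to 0.11), and that for LOC_Os09g19510 was lost without any of them except wild type control replicate 2 (0.063 to 0.091). The calls for LOC_Os06g45960 and LOC_Os09g19500 were kept in all 18 alternative settings, with adjusted p of at most 0.035 and 0.048.

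**Figure D3:**
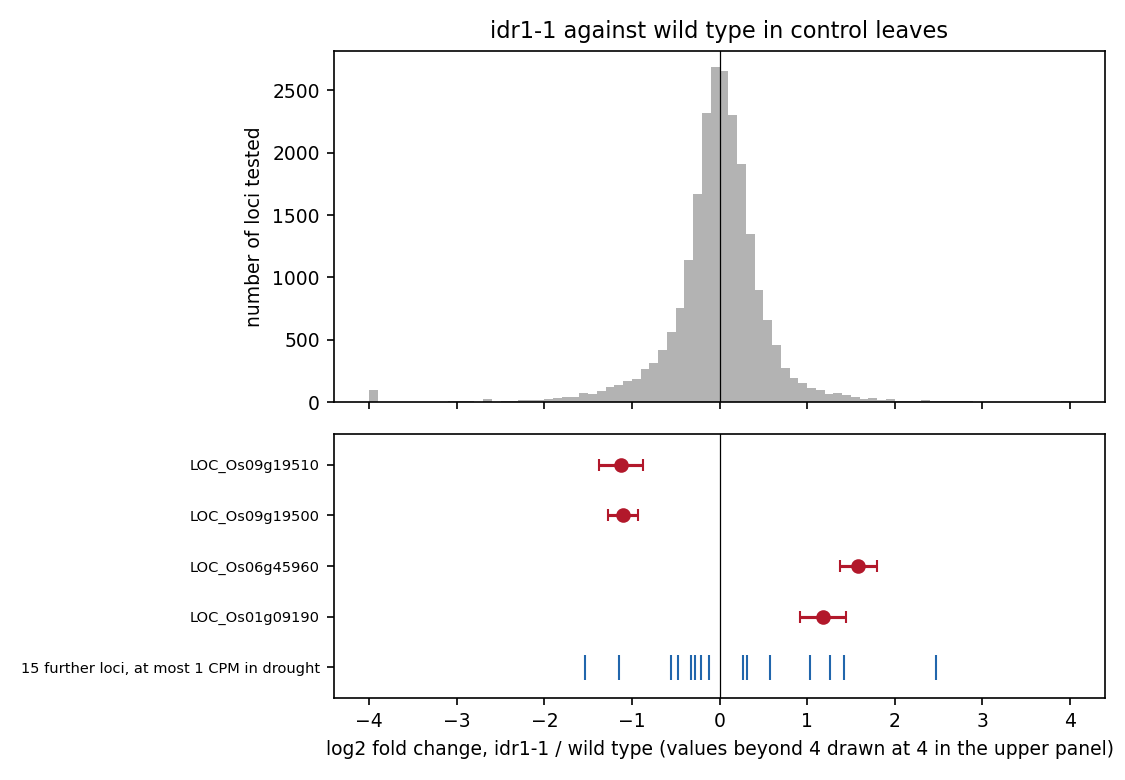
Upper panel: number of tested loci by log2 fold change of idr1-1 over wild type in control leaves. Lower panel: the 4 loci (red, bars ± 1 SE) and the 15 further loci that meet a drought limit of 1 CPM (blue ticks), with the 4 loci at 1.18, 1.59, -1.11 and -1.13.

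Looser limits brought in more loci, some of them called between genotypes. With at most 1 CPM in every drought library, 19 loci qualified, the 4 among them. In control, 10 of the 19 were called, 6 higher and 4 lower in idr1-1. Of those this limit added, LOC_Os10g33900 lost its call without any control library except idr1-1 control replicate 2 (adjusted p = 0.058 to 0.15). In all, 9 of 18 alternative settings lost it. LOC_Os06g45970 lost its call without 3 of the 6 control libraries (0.058 to 0.066). For the other called loci that this limit added, losses are not given. With at least 2 CPM in every control library, 8 loci qualified and 7 were called, 5 higher and 2 lower in idr1-1. Of those added, the calls for LOC_Os07g11970 and LOC_Os01g09150 were lost without any 1 of the 6 control libraries (adjusted p = 0.063 to 0.18 and 0.09 to 0.12). In all, 12 and 9 of 18 alternative settings lost these calls. That for LOC_Os11g31530 was lost without wild type or idr1-1 control replicate 3 (0.057 and 0.063). The 10 of 19 stand beside 11.7% of the loci with at least 3 CPM in every control library, a limit that set kept. The 7 of 8 stand beside 10.5% of all loci tested. Both wider sets include the 4. Over all loci the called differences were 1266 higher and 1125 lower in idr1-1, and 599 and 838 with library totals alone as scaling.

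Where the control limit was required in 1 genotype only, while all drought libraries stayed at or below 0.5 CPM, 5 loci qualified on wild type control and 9 on idr1-1 control. LOC_Os02g38780 was the 1 locus that qualified on wild type control alone. It was at 3.71 to 5.49 CPM there and at 0.122 to 0.160 CPM in idr1-1 control. In wild type and idr1-1 drought it was at 0.279 ± 0.0464 and 0.218 ± 0.0890 CPM. The 5 that qualified on idr1-1 control alone were LOC_Os01g09150, LOC_Os01g63180, LOC_Os11g31530, LOC_Os04g10160 and LOC_Os07g11970. LOC_Os01g63180 was at 2.81 ± 1.13 CPM in wild type control and 11.98 ± 4.98 in idr1-1 control, and LOC_Os11g31530 was at 2.99 ± 1.11 and 10.3 ± 3.32 CPM. Since the limit was set on these same control levels, the genotype differences of these 6 loci are given here as values with no test. Calls for LOC_Os01g09150, LOC_Os07g11970 and LOC_Os11g31530 are given elsewhere, since these loci also met the looser control limit in both genotypes. LOC_Os01g09150 is also described as a neighbour of LOC_Os01g09190. Those calls do not test the loci as chosen here, on the control level of 1 genotype.

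The surroundings of the 4 loci differed between chromosomes. Within 2 places on either side lay 12 loci that were not among the 4, of which 5 had enough counts to test. In wild type 2 of these 5 were called lower in drought, beside 21.5% of all tested loci, and in idr1-1 the same 2, LOC_Os06g45940 and LOC_Os06g45970, beside 17.6%. Both lie beside the same locus, LOC_Os06g45960, and are not independent, so that the count of 2 in 5 was not tested against either background. Within 5 places there were 30 such loci, 13 of them tested, with 5 called lower in wild type and 4 in idr1-1. These were LOC_Os01g09140, LOC_Os01g09150, LOC_Os06g45940 and LOC_Os06g45970 in both, and LOC_Os06g45990 in wild type (log2 -0.78, SE 0.27, adjusted p = 0.039). The LOC_Os06g45990 call was lost without any control library except wild type control replicate 1 (0.052 to 0.12), and in 11 of 18 alternative settings in all. The median log2 drought change of those 13 was -0.17 in wild type and -0.28 in idr1-1, against 0.00 and 0.01 over all loci.

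On chromosome 1, 3 of the 5 loci before LOC_Os01g09190 had at least 13 counts in each control group and none in wild type drought. Of these 3, LOC_Os01g09150 was also called between genotypes in control. LOC_Os01g09160 had 0.14 and 0.33 of a count in wild type and idr1-1 control and 0 in drought. LOC_Os01g09150, 4 places away, was at 2.88 ± 0.738 CPM in wild type control and 6.29 ± 1.51 in idr1-1 control (SD, n = 3). It had no count in wild type drought, at least 67.1-fold lower (adjusted p = 1.6e-05), and 4 counts against 381 in idr1-1 drought (ratio 103, interval 39.8 to 379, adjusted p = 1.1e-05). All its idr1-1 control libraries, at 5.19 to 8.01 CPM, lay above those of wild type, at 2.04 to 3.38 CPM. Its genotype difference in control was 1.22 (log2, SE 0.31, adjusted p = 0.039), a call lost without any 1 of the 6 control libraries (0.09 to 0.12). In all, 9 of 18 alternative settings lost that call.

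LOC_Os01g09140, 5 places away, had 22 and 52 counts in wild type and idr1-1 control and 0 in both drought groups. Drought was at least 8.15-fold and 18.7-fold lower (adjusted p = 0.0013 and 0.00035), and the genotypes differed by 1.37 in control (log2, SE 0.39, adjusted p = 0.067). LOC_Os01g09180, directly before the locus, had 13 and 22 control counts and 0 in drought, too few to enter the test, and its genotypes overlapped in control (0.156 to 0.260 CPM in wild type, 0.236 to 0.628 in idr1-1). With no filter on low counts its drought adjusted p was 0.0099 in wild type and 0.0038 in idr1-1 (edgeR). Drought left these loci without reads in wild type, while LOC_Os01g09200, directly after, was at 43.7 ± 4.03 CPM in wild type control and 40.3 ± 3.29 in wild type drought (log2 -0.06, SE 0.09, adjusted p = 0.63).

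The count ratio of LOC_Os01g09190 to LOC_Os01g09150 within a library does not depend on depth. It was 3.28, 5.11 and 3.86 in wild type control replicates 1, 2 and 3, and 3.53, 4.07 and 3.84 in idr1-1 control. Over the groups it was 3.96 (exact 95% counting interval 3.36 to 4.69) and 3.83 (3.42 to 4.30), so that the intervals overlap while both loci were higher in idr1-1.

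On chromosome 6 the locus directly after LOC_Os06g45960 shared its pattern. LOC_Os06g45970 was at 6.28 to 8.76 CPM in wild type control and 16.5 to 22.0 CPM in idr1-1 control, with no overlap (log2 1.42, SE 0.28, adjusted p = 0.015). It was lower in drought by -3.89 in wild type (log2, SE 0.37, adjusted p = 1.1e-05) and by -5.32 in idr1-1 (SE 0.38, adjusted p = 1.8e-06), with 34 and 30 counts left. The genotype call was lost without wild type control replicate 1 or 3 or idr1-1 control replicate 3 (0.058 to 0.066). Its highest drought library, at 0.875 CPM, kept it above the drought limit. The ratio of its counts to those of LOC_Os06g45960 was 1.55 in wild type control (interval 1.34 to 1.80) and 1.38 in idr1-1 control (1.26 to 1.51), where single libraries ran from 1.15 to 1.76.

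LOC_Os06g45940, 2 places before LOC_Os06g45960, went from 24.7 ± 1.39 to 3.36 ± 0.654 CPM in wild type (log2 -2.82, SE 0.14, adjusted p = 1.3e-07) and from 30.4 ± 3.03 to 4.25 ± 0.524 in idr1-1 (-2.79, SE 0.14, adjusted p = 2.2e-07). Its genotype difference in control was 0.38 (SE 0.12, adjusted p = 0.072). Between them, LOC_Os06g45950 moved the other way in idr1-1, from 2.46 ± 0.580 to 4.87 ± 3.36 CPM (log2 0.95, SE 0.33, adjusted p = 0.04). Higher calls made up 18% of all loci tested in that comparison. That rise rests on idr1-1 drought replicate 3, at 8.70 CPM, and was 0.40 without it (adjusted p = 0.2). The call was also lost without any control library except idr1-1 control replicate 1 (0.055 to 0.13), and in 12 of 18 alternative settings in all. LOC_Os06g45980, on the far side of LOC_Os06g45970, gave log2 drought changes of -0.17 (adjusted p = 0.26) and -0.28 (adjusted p = 0.083).

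On chromosome 9 the pair stood alone. Of the 5 loci before LOC_Os09g19500, 4 had no count in any of the 12 libraries and LOC_Os09g19450 had 0.1 of a count. The 4 loci directly after LOC_Os09g19510 held at most 1.6 counts summed over any group. The next locus, LOC_Os09g19560, was at 32.0 ± 1.13 CPM in wild type control and 35.9 ± 4.09 in wild type drought (log2 0.22, adjusted p = 0.11). The ratio of LOC_Os09g19510 to LOC_Os09g19500 counts was 1.13 in wild type control (interval 1.04 to 1.23) and 1.11 in idr1-1 control (0.974 to 1.27), so that the genotypes differed by about the same factor at both. In single libraries it ran from 0.871 in idr1-1 control replicate 1 to 1.33 in wild type control replicate 3, whose intervals (0.686 to 1.10 and 1.16 to 1.53) do not overlap.

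**Figure D4:**
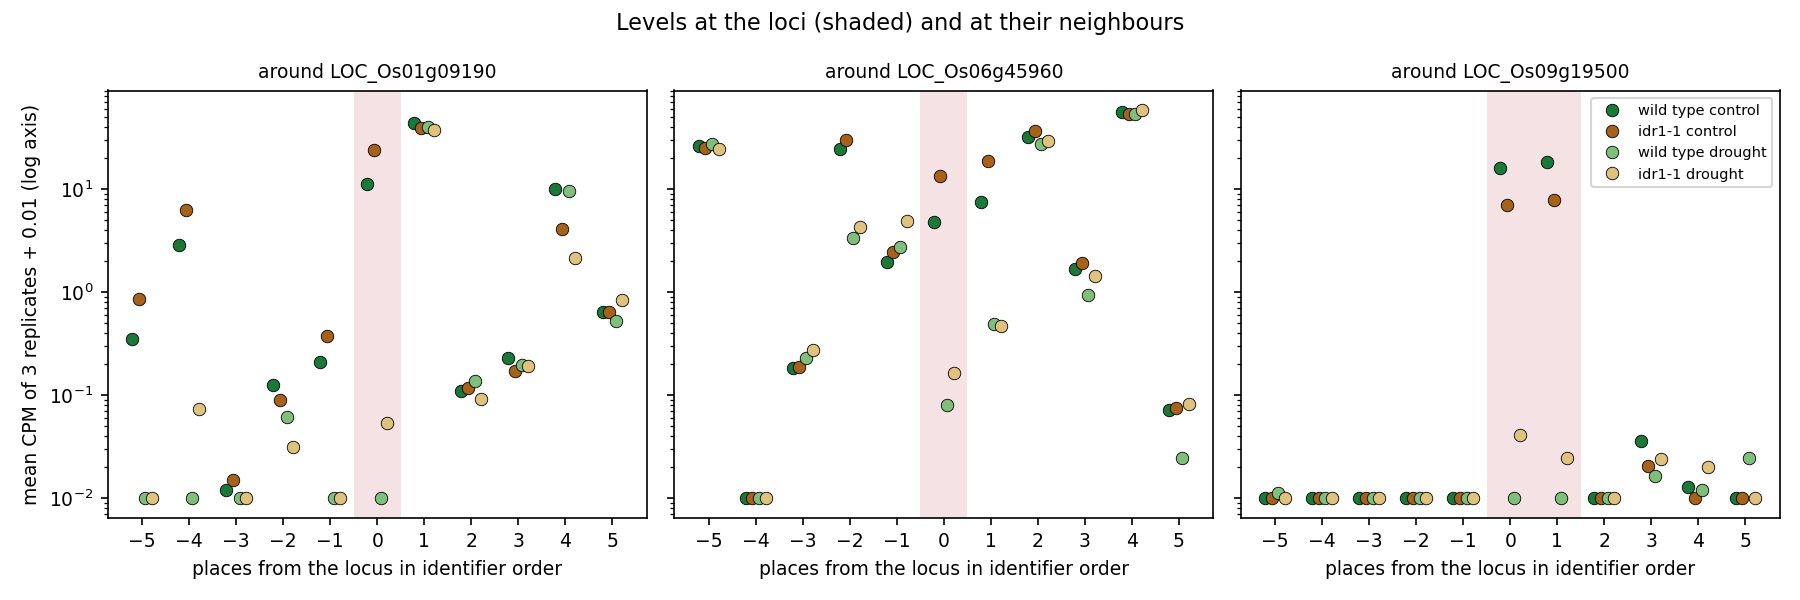
Mean CPM of 3 replicates + 0.01 (log axis) in the 4 groups at each locus (shaded) and at the loci up to 5 places on either side in identifier order; points at 0.01 have no count. Drought points lie far below control points at the shaded loci, at places -5, -4 and -1 of the chromosome 1 panel and at places -2 and 1 of the chromosome 6 panel, and the chromosome 9 pair lies among loci with almost no reads.

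Likeness to other loci was measured as the root mean square difference of log2(CPM + 0.5) over 12 libraries, a rule set after the 4 loci were known. LOC_Os09g19500 and LOC_Os09g19510 were each other's nearest locus of the 55986, at 0.187. After its partner, LOC_Os09g19500 was nearest to LOC_Os07g06860 (0.621), LOC_Os10g33900 (0.650) and LOC_Os08g39830 (0.721), and LOC_Os09g19510 to the same 3 loci in that order. Mean levels in wild type and idr1-1 control were 12.8 and 11.1 CPM for LOC_Os07g06860, 14.4 and 6.07 CPM for LOC_Os10g33900 and 15.4 and 4.98 CPM for LOC_Os08g39830. The measure uses all 12 libraries, the levels that chose the 4 loci among them. Low drought levels and a likeness in the genotype difference are thus part of the choice, and neither was tested. It also compares CPM between loci of unknown length, so that a near locus is one of like CPM. For LOC_Os06g45960 the nearest were LOC_Os11g31530 (0.479), LOC_Os01g63180 (0.505), LOC_Os11g35890 (0.557) and its neighbour LOC_Os06g45970 (0.629). For LOC_Os01g09190 they were LOC_Os07g06860 (0.733), LOC_Os06g45970 (0.756), LOC_Os06g45960 (0.773) and LOC_Os01g68740 (0.825).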

How the data were processed

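Values are estimated counts per locus, deposited by the authors as 1 table per library and not scaled to depth. HISAT2 2.1.0 and featureCounts 1.6.3 are named in the submitters' processing notes, while genome build, annotation, strand setting and handling of shared reads were not given in the sources used here, so that overlapping, antisense and near-identical loci are uncertain. CPM is the deposited value over the library total. Rounding to whole numbers for the tests moved totals by at most 0.00113%, and 22833 loci passed filterByExpr. edgeR 4.0.16 (R 4.3.3) used TMM factors and a quasi-likelihood test over 12 libraries with 1 mean per group, and p was adjusted after Benjamini-Hochberg across every locus tested, with a threshold of 0.05. DESeq2 1.42.0 was an alternative. The SE is the log2 fold change over the square root of F. Where a drought group held 0 counts, folds are against a floor of 3 counts over the group. Ratio intervals are Clopper-Pearson, at 95%. Tested on simulated counts with 200 loci changed, the genotype comparison in control (22076 loci) recovered 70% of 2-fold and 98% of 4-fold changes, with 7.18% of calls false. The simulated loci all had the same spread between replicates, and no simulated library stood apart. These rates therefore check the procedure and are not error rates for the libraries described here.

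The loci, lists and limits were chosen with earlier results of these data known. Groups and replicates come from the sample titles. All 4 loci are named, since the rule was to name every locus if 40 or fewer qualified, as are neighbours within 5 places and the 5 nearest each limit. LOC_Os08g39830, LOC_Os11g35890 and LOC_Os01g68740, and the loci that met the control limit in 1 genotype, were named after their values were seen. Marker names are recalled published assignments, of which the RefSeq table held 47 of 56 names on the chromosome of the locus identifier. RBCS2, RBCS3 and, among the other markers, CDKB1 were not among these. The 2 cell division markers summed to 21.3 to 23.3 CPM in control and 16.5 to 20.8 CPM in drought libraries. No pair of replicates was a duplicate (chi-square per locus 8.20 or more).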

Additional observations from a re-analysis of the deposited data

How the results depend on the processing

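The number of loci that qualified was 8 with at least 2 CPM in control and 19 with at most 1 CPM in drought, and 3 to 5 under the other alternatives of scale, rounding and limits. With any 1 library left out it was 4 to 6, and the 4 loci qualified each time. The number called between genotypes in control was 4 under other scalings, with no filter, with DESeq2 and with the control libraries alone, and 2 to 4 with any 1 library left out, 2 or 3 without a control library. The replicate numbers did not pair the libraries: deviations of same-numbered libraries correlated at -0.317 to 0.126, 1 of 9 above 0.1, and 2 of 9 libraries correlated best with their own number. With the replicate number as a block, 3 of the 4 were called. Over all loci that comparison called 2391, but 1112 with the block, 1437 with library totals alone, 3822 with the control libraries alone and 207, 292, 512, 643, 1562 and 4557 without idr1-1 control replicate 3, wild type control replicates 1 and 3, idr1-1 control replicate 1, wild type drought replicate 1 and idr1-1 drought replicate 3; the cause was not tested. Of the neighbours within 2 places, 2 or 3 were called lower in drought in each genotype under every alternative run, the 2 of the report each time. The share of tested neighbours called lower was 33.3% within 1 place in both genotypes, and within 5 places 38.5% in wild type and 30.8% in idr1-1. No called value changed sign under the alternatives run. Depth limits what can be said of drought levels, which lie near 3 counts per library.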
